A study of Mus musculus with 2 samples.

Results

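Ffar2 positive resting cDC2 are a population of conventional dendritic cells of the mouse spleen that was selected on the UMI counts themselves. A cell belonged to it when it held at least 1 UMI of Ffar2, fewer than 3 UMIs of Ccr2, Cd209d, Mgl2 and Clec10a together, fewer than 4 of the maturation genes Ccr7, Fscn1, Socs2 and Cacnb3, fewer than 4 of the proliferation genes Top2a, Mki67, Birc5 and Pclaf, fewer than 2 of the cDC1 genes Xcr1 and Clec9a, fewer than 5 of Siglech and fewer than 50 of Igkc. At least 10% of its UMIs also had to come from ribosomal protein genes. Of 19339 cells in both libraries, 5437 met this rule. These were 1467 of 7814 WT cells and 3970 of 11525 cells of H2-Aa cit/cit mice.

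The study sequenced 3′ transcripts of single splenic CD11c+ cells, sorted as live CD45.2+ CD11c+ cells after magnetic enrichment for CD11c. One library came from 3 pooled naive WT (H2-Aa +/+) mice and the other from 3 pooled naive mice homozygous for the citation (cit) allele of H2-Aa, an ENU-induced mutation in C57BL/6J mice; cells of the latter are called mutant below. The labels give all mice as female and 4 months old, and no agent was given to either group. The deposited cells carry no mark of the mouse they came from. With 1 library per genotype the comparison has no replicate check, so no test was made. The 95% intervals below cover counting error only, and where they are not overlapping they still say nothing of the spread between mice.

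H2-Aa encodes the alpha chain of the MHC-II heterodimer, which presents peptides to CD4 T cells and is assembled in the endoplasmic reticulum (ER) with the invariant chain Cd74. In C57BL/6J mice it is the partner of the beta chain H2-Ab1, so that its loss removes MHC-II from the cell surface. Resting cDC2 of the spleen fall into NOTCH2-dependent cells that carry ESAM, CD4 and the C-type lectin DCIR2 (Clec4a4), known for presenting antigen to CD4 T cells, and a second kind marked by CLEC12A, CCR2 and MGL2. Ffar2 (minus strand of chromosome 7, 30818348 to 30823775) encodes a G protein-coupled receptor for short-chain fatty acids, and Ltb encodes lymphotoxin beta, a ligand of the lymphotoxin beta receptor.

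The members were a larger share of the mutant library than of the WT library. They made up 18.8% (17.9 to 19.7) of WT cells and 34.4% (33.6 to 35.3) of mutant cells, a difference of 15.7 percentage points (14.4 to 16.9). These are shares of sorted CD11c+ cells, so the enrichment and the gate can set them, and numbers of cells per spleen were not analysed here. The median WT member held 7936 UMIs and 2912 genes, and the median mutant member 6744 UMIs and 2622 genes. Over all members, 11520902 and 27954923 UMIs were counted. Ribosomal protein genes took a median of 17.4% and 19.6% of the UMIs of a member, and mitochondrial genes 1.55% and 1.59%. The libraries shared 31 cell barcodes, of which 3 belonged to a member in both.

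Because a single Ffar2 UMI admitted a cell, membership depended on depth. Among the cells inside all the other limits, a Ffar2 UMI was found in 15.1% of WT cells and 23.9% of mutant cells with 500 to 2000 UMIs, and in 86.4% and 93.1% of those with 12000 to 20000 UMIs. The summed level changed less with depth. It was 296 CPM (UMIs scaled to a total of 1000000) in WT cells of 4000 to 6000 UMIs and 296 CPM in those of 12000 to 20000, and 352 and 314 CPM in mutant cells, but only 184 CPM in WT cells of 2000 to 4000 UMIs. When every cell was thinned to 1500 UMIs and shallower cells were left out, 29.9% (27.9 to 32.0) of the WT cells inside the other limits and 35.8% (34.5 to 37.1) of the mutant cells held a Ffar2 UMI, against 60.1% and 71.8% at full depth. In resting cDC1 of the same libraries, the thinned shares were 7.24% and 11.02%. These cDC1 were chosen by Xcr1 and Clec9a and taken as a background for free RNA.

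**Figure D1:**
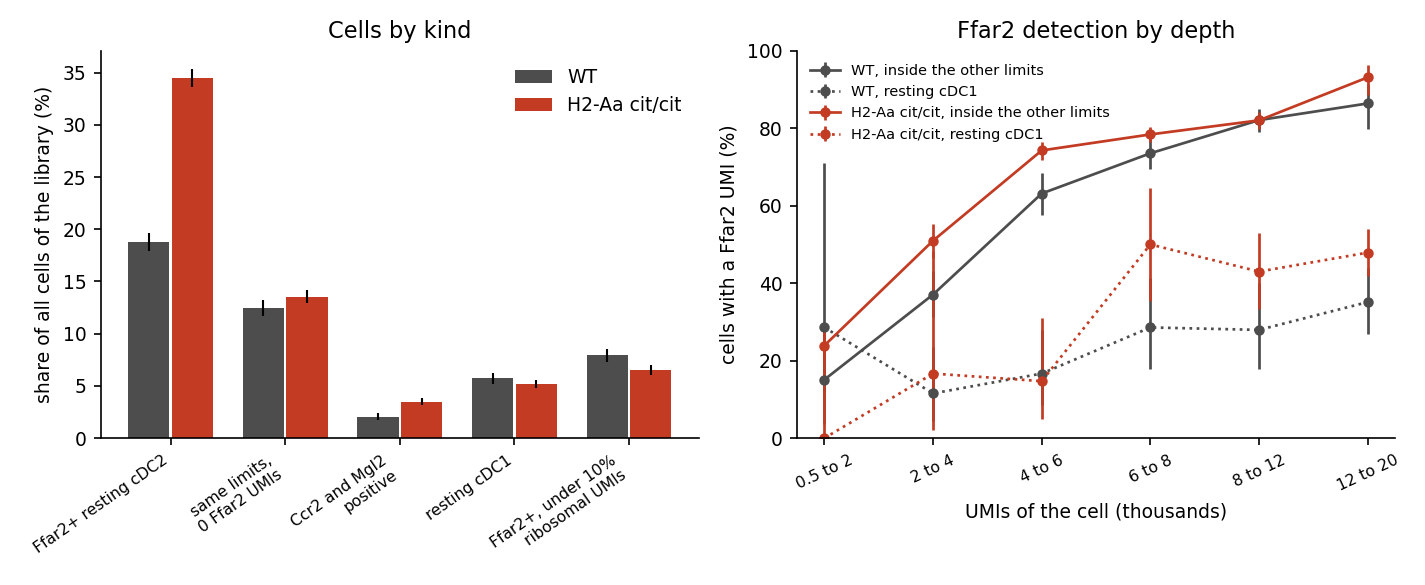
Left, share of all cells of each library (%) that fell into the Ffar2 positive resting cDC2 and 4 other kinds of cells. Of these, resting cDC1 were chosen by Xcr1 and Clec9a. Bars are 1 library each and lines are exact 95% binomial intervals. Right, share of cells with at least 1 Ffar2 UMI (%) by the cell's UMI total, for cells inside all other limits (solid) and resting cDC1 (dotted). The share of members was 18.8% for WT against 34.4% for H2-Aa cit/cit, and detection inside the limits climbed with depth in both.

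Many members stood at the Ffar2 limit, which used the values described here. Exactly 1 Ffar2 UMI was found in 457 WT members (31.2%) and 1215 mutant members (30.6%), the median was 2 in both, and the highest was 16 and 20. Cells with 0 Ffar2 UMIs that met every other limit numbered 972 and 1558. The ribosomal minimum alone kept out 619 WT and 752 mutant cells. Members of 10 to 11% ribosomal UMIs numbered 68 and 63, and cells of 9 to 10% outside numbered 47 and 67. The maturation limit alone kept out 184 and 226 cells, the proliferation limit 117 and 313, and the cDC1 limit 136 and 268. The Igkc limit kept out none, and no member held more than 8 Igkc UMIs.

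The genes named for the population were found in the members, although few cells showed several of them at once. Ltb stood at 512 CPM in WT and 486 CPM in mutant members, Cd7, a cell surface molecule of the immunoglobulin superfamily, at 243 and 202 CPM, and Clec4a4 at 103 and 86.0 CPM. Cd7 did not mark them alone, since Ccr2 and Mgl2 positive cells held 349 and 278 CPM of it. Esam, an adhesion molecule of endothelium and splenic cDC2, was low, at 21.9 and 17.6 CPM. At 1500 UMIs per cell, at least 2 of these 4 genes were seen in 24.2% of WT and 20.5% of mutant members, against 0.679% and 1.53% of resting cDC1. Cells of the same limits with 0 Ffar2 UMIs lay between, at 13.7% and 15.4%. The cDC2 label also held by the lineage genes that the rule did not use: Sirpa, the inhibitory receptor that defines cDC2, was at 399 and 337 CPM in members and at 52.2 and 49.1 CPM in resting cDC1. Irf8, the transcription factor of cDC1, was at 25.8 and 23.1 CPM in members and at 1276 and 1398 CPM in resting cDC1. Cells with 0 Ffar2 UMIs had more of it than members, at 134 CPM in WT and 59.1 CPM in mutant cells.

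Genes of T cells, NK cells, neutrophils and erythroid cells were scarce, and those of plasma cells and macrophages were not. All 8 T cell genes were below 1 CPM in both libraries, with sums of 1.22 and 1.54 CPM. The 8 B cell genes summed to 41.1 and 41.0 CPM, with Cd79b the most abundant, and at least 2 UMIs of them were held by 6.07% and 4.61% of members. The 7 NK cell genes summed to 6.60 and 9.91 CPM. The 9 genes of the neutrophil lineage summed to 2.60 and 17.7 CPM, led by S100a9, with Elane at 0 in both libraries, and up to 176 UMIs of the list lay in 1 mutant cell. The 6 erythroid genes summed to 20.2 and 3.51 CPM, led by Hbb-bs, and up to 185 UMIs of the list lay in 1 WT cell. Without the members that held at least 2 UMIs of the T, B, NK, neutrophil or erythroid list, 1344 WT and 3629 mutant members were left. In these, 23 of the 27 ER genes compared below were higher in the mutant, against 24 over all members. Over all members, 9 of the 27 reached 50 CPM in the mutant library alone, which fixed their direction, and 3.12% of all 3681 genes were higher. The share of all genes without the removed members is not given here. The 9 plasma cell genes summed to 116 CPM in both libraries, nearly all of it Ighm (110 and 113 CPM), and at least 2 UMIs of them were held by 22.97% and 19.6% of members. The list of macrophage and monocyte genes was the most common, with at least 2 UMIs in 47.0% and 45.5% of members, and its sum of 290 and 273 CPM was mostly Adgre1 (212 and 201 CPM), the gene of F4/80. No doublet caller was run, and the part of doublets in any value was not tested.

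The members were then set beside cells of the same libraries that met the other limits but held 0 Ffar2 UMIs. Ffar2 itself separates these kinds by rule. Of 3500 genes with at least 50 CPM in either kind of cells in both libraries, 4 (0.114%) were 2-fold or more higher in members in both libraries, namely Ffar2, Gm4107, Gm12159 and Bank1. All 4 reached this minimum in the members alone, so that their direction was fixed by it. Bank1, a B cell scaffold protein gene, was at 72.6 against 33.1 CPM in WT and 91.4 against 45.3 CPM in mutant cells. In the other direction, 15 genes (0.429%) were 2-fold or more lower in members in both. Among them were Ace, at 9.46 against 86.9 CPM in WT and 11.3 against 51.0 CPM in mutant cells, and Adgre4, at 55.7 against 202 and 50.04 against 150 CPM, both genes of patrolling monocytes and of some myeloid cells of the spleen. Ace reached the minimum in the cells with 0 Ffar2 UMIs alone. Lyz2, which encodes lysozyme, was at 129 against 942 CPM in WT and 64.4 against 244 CPM in mutant cells. The cells with 0 Ffar2 UMIs were shallower, with medians of 2980 and 5106 UMIs.

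The Ccr2 and Mgl2 positive cells held at least 3 UMIs of Ccr2, Cd209d, Mgl2 and Clec10a, and numbered 160 in WT and 402 in mutant. Of 3649 genes, 160 (4.38%) were 2-fold or more higher and 99 (2.71%) 2-fold or more lower in members in both libraries. Both counts include genes that reached 50 CPM in a single kind of cells, whose direction was fixed and whose number was not counted. Of the 11 genes of the NOTCH2 and ESAM-high list, 7 reached 50 CPM and 4 were higher in members, namely Dtx1, Clec4a4, Cd4 and Relb, and none was lower. Dtx1, Clec4a4 and Cd4 reached the minimum in the members alone, so that their direction was fixed by it. Of the 4 genes that reached it in the Ccr2 and Mgl2 positive cells, 1, Relb, was higher. Dtx1, the Deltex gene and a target of Notch signaling, was at 150 against 5.93 CPM in WT and 112 against 15.4 CPM in mutant cells. Dscam, which encodes a homophilic adhesion molecule best known from neurons, was at 1468 against 81.9 CPM and 1002 against 117 CPM. Cd4 was at 112 against 24.3 CPM and 108 against 24.4 CPM, and Relb, a subunit of noncanonical NF-kB, at 490 against 153 CPM and 328 against 116 CPM. Outside the 4 genes of the rule, Ly6c2, a monocyte surface antigen, was lowest in members, at 0.694 against 141 CPM and 1.36 against 157 CPM. It reached the minimum in the Ccr2 and Mgl2 positive cells alone. Cd209a, another C-type lectin, was at 99.9 against 588 CPM and 149 against 620 CPM.

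Against resting cDC1 (448 WT and 596 mutant cells), 407 of 3654 genes (11.1%) were 2-fold or more higher and 159 (4.35%) 2-fold or more lower in members in both libraries. Here too the counts include genes that reached 50 CPM in members alone or in resting cDC1 alone, and their number was not counted. The transcripts that led the members were Gm4107, Gm32509, Clec4a4, Dscam, Abcb1a and Dtx1. All but Dscam were under 50 CPM in resting cDC1, so that their direction was fixed by the minimum. Clec4a4 was at 103 against 6.89 CPM in WT and 86.0 against 6.78 CPM in mutant cells. Tlr7, the endosomal receptor for single-stranded RNA, was at 57.9 against 6.30 CPM and 65.1 against 8.09 CPM, whereas Tlr3, the receptor for double-stranded RNA that cDC1 use, was at 5.99 against 140 CPM and 6.01 against 131 CPM. Gpr183, the oxysterol receptor that places splenic cDC2 in the bridging channels, was at 260 against 33.3 CPM and 243 against 43.5 CPM. Tlr7 and Gpr183 reached 50 CPM in members alone and Tlr3 in resting cDC1 alone, so that their directions were fixed too.

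Cells that met the other limits but had under 10% ribosomal UMIs were separated by a limit on ribosomal genes, so that the 508 of 4113 genes (12.4%) higher in members, led by ribosomal protein genes, are fixed by the rule in large part. They were also shallower, with medians of 3468 and 2749 UMIs. Lower in members were 175 genes (4.25%), led by Gm15261 (120 against 575 CPM in WT and 106 against 483 CPM in mutant cells). Clec4a4 stood at 140 and 139 CPM and Cd4 at 149 and 173 CPM in the cells with few ribosomal UMIs, both above their levels in members, whereas Ltb stood at 277 and 300 CPM, below them.

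**Figure D2:**
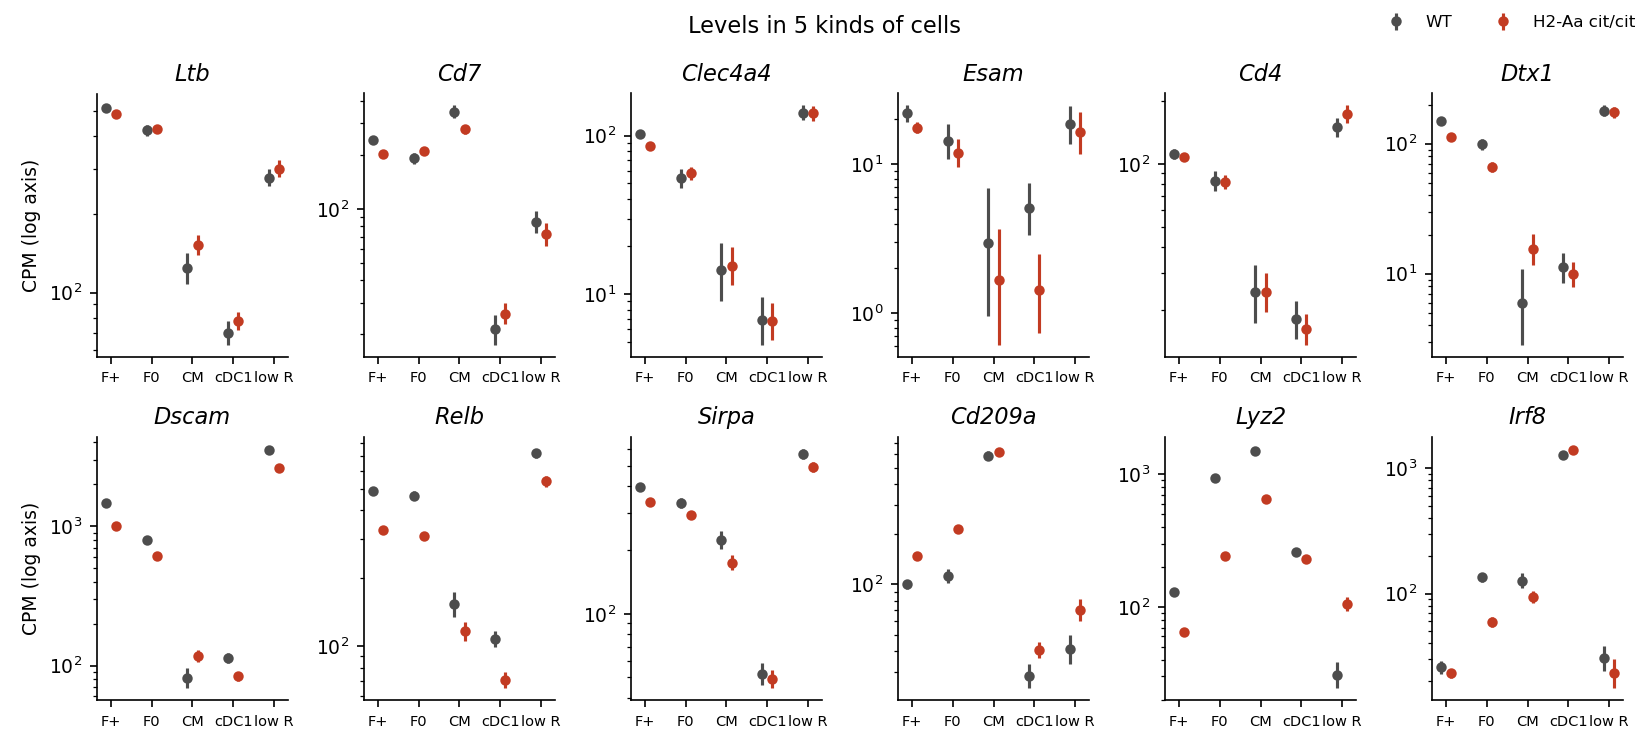
Levels of 12 genes (CPM, log axis) in the 5 kinds of cells in WT and H2-Aa cit/cit libraries: Ffar2 positive resting cDC2 (F+), the same limits with 0 Ffar2 UMIs (F0), Ccr2 and Mgl2 positive cells (CM), resting cDC1 (cDC1) and Ffar2 positive cells with under 10% ribosomal UMIs (low R). Points are summed UMIs of 1 library with exact 95% Poisson intervals; Dtx1 stood at 150 and 112 CPM in F+ and at 5.93 and 15.4 CPM in CM.

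H2-Aa (ENSMUSG00000036594, minus strand of chromosome 17 of GRCm38, 34282744 to 34287823) was nearly lost from the mutant members. Its level was 7398 CPM (7348 to 7447) in WT and 83.4 CPM (80.1 to 86.9) in mutant members, a log2 ratio of −6.47 (−6.53 to −6.41). The median WT member held 55 UMIs and only 3 held none, whereas 2353 mutant members (59.3%) held none and the highest held 6. The other MHC-II genes moved little. H2-Ab1 was at 6404 and 7296 CPM (log2 ratio 0.19), H2-Eb1 at 6976 and 8260 CPM (0.24), and Cd74 at 16874 and 16700 CPM (−0.01). Of the 13 genes on the MHC-II list, H2-Aa was the only one past the fold used here, a log2 ratio of at least 0.5 in size.

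Between genotypes, 3681 genes with at least 50 CPM in the members of either library were compared, and their median log2 ratio of H2-Aa cit/cit to WT was −0.02. By this fold 115 genes (3.12%) were higher and 53 (1.44%) lower in mutant members. Of the 3681, 166 reached 50 CPM in the mutant library alone. Among the 3515 that reached it in WT, 72 (2.05%) were higher and 53 (1.51%) lower. At a log2 ratio of 1 in size, 22 of the 3681 were higher and 8 lower. The highest ratios belonged to Cox6a2, Creld2, Nucb2, Sdf2l1, Ddit3, Manf, Pdia4, Hyou1, Hspa5 and Pdia6. All but Cox6a2, Nucb2 and Ddit3 are on the list of ER folding genes. Cox6a2, Creld2, Nucb2, Ddit3, Pdia4 and Hyou1 were under 50 CPM in WT, so that their direction was fixed by the minimum. The lowest after H2-Aa belonged to Ryr3, Egr1, Gm47283, H2-M2, 2900052N01Rik, Dlg2, Lyz2, Tmem132c and Frmd5. Ryr3, Egr1, H2-M2, 2900052N01Rik and Tmem132c were under 50 CPM in the mutant, so that theirs was fixed in the same way.

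**Figure D3:**
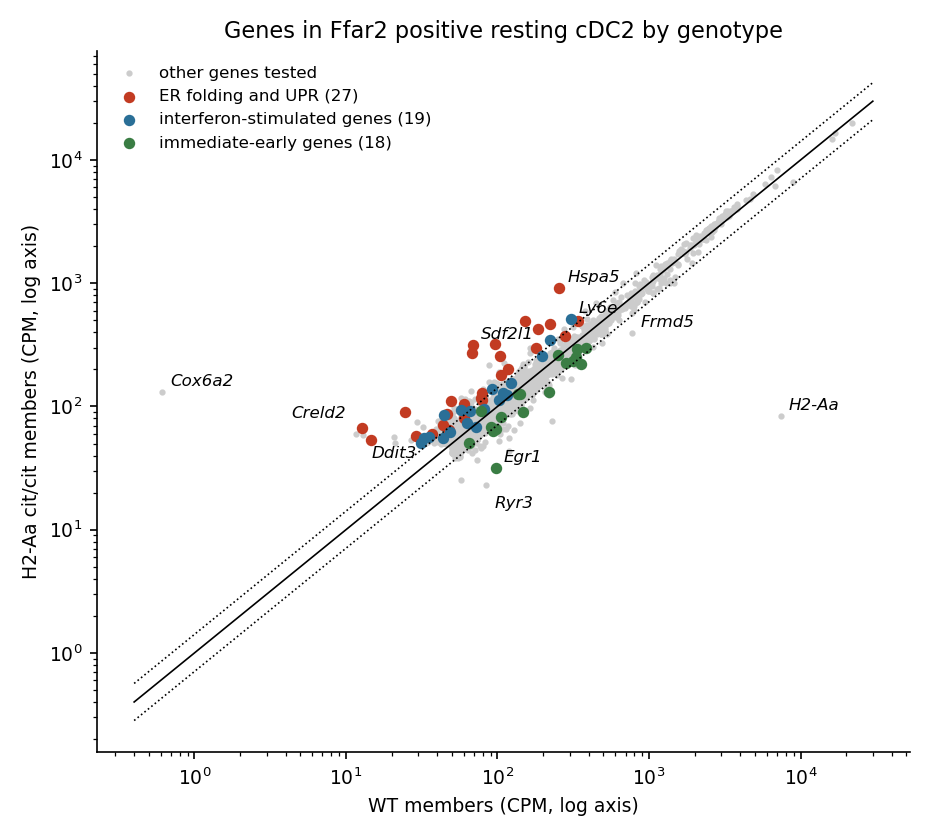
Summed level of each of 3681 genes in WT members (horizontal) and H2-Aa cit/cit members (vertical), in CPM on log axes, with 3 gene lists colored. The solid line marks equal levels and the dotted lines a log2 ratio of 0.5 in size. Of 27 ER folding genes, 24 lie above the upper dotted line, beside 3.12% of all 3681 genes. Of the 27, 9 reached 50 CPM in H2-Aa cit/cit members alone, which fixed their direction. Of the 18 that reached it in WT members, 16 lie above that line, beside 2.05% of all 3515 such genes. H2-Aa and Cox6a2 lie farthest from the solid line.

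The unfolded protein response raises transcription of ER chaperones when unfolded proteins gather in the ER lumen, through the sensors ATF6, IRE1 with its target Xbp1, and PERK with its target Atf4. Of 33 genes on the list of ER folding and the unfolded protein response, 27 reached 50 CPM. Of these, 24 were higher, none was lower, and the median log2 ratio was 0.92. Since 9 of the 27 reached 50 CPM in the mutant library alone, where they are high, their direction was fixed by the minimum. Of the 18 that reached it in WT, 16 were higher and none lower, with a median of 0.79, beside 2.05% higher among all 3515 such genes. Another 5 were below 50 CPM and 1, Ero1b, was not matched by this symbol. The files hold it under the older symbol Ero1lb, at 57.6 and 82.3 CPM (log2 ratio 0.51), which is not in the counts of the list. Hspa5 (plus strand of chromosome 2, 34771970 to 34777547), the chaperone BiP and the most abundant of the list, was at 254 CPM (245 to 264) in WT and 911 CPM (900 to 922) in mutant members, a log2 ratio of 1.84 (1.79 to 1.90). Its cofactor Sdf2l1 was at 68.9 and 314 CPM (2.19), and Hsp90b1, the ER form of HSP90, at 152 and 490 CPM (1.69). Among the disulfide isomerases, Pdia6 was at 96.5 and 323 CPM (1.74), Pdia4 at 24.5 and 90.6 CPM (1.89) and Pdia3, which also serves peptide loading of MHC-I, at 184 and 427 CPM (1.21). The lectin chaperones Calr and Canx were at 221 and 468 CPM (1.08) and at 118 and 201 CPM (0.77). Of genes of export from the ER for degradation, Herpud1 was at 180 and 296 CPM (0.72) and Sel1l at 105 and 182 CPM (0.79). The 3 tested genes under the fold were Edem2, Derl1 and Ppib, each with a log2 ratio of 0.42 or 0.43.

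The promoters of several of these genes share the ER stress response element, which ATF6 binds together with NF-Y. It was searched as CCAAT, any 9 bases, then CCACG, on both strands of the 300 bases from 250 before to 50 after each start in RefSeq (GRCm38.p6). It occurred in 37 of 27025 genes with such a window (0.137%). Of the 26 ER list genes with a window, 10 (38.5%) held it. Of the 19 ER list genes that were both higher in mutant members and had a window, 7 held it. A match is a description of the letters and not evidence of binding. The 7 genes with a match are Calr, Canx, Creld2, Dnajc3, Hsp90b1, Hspa5 and Pdia6, and the windows of 5 of them that were most changed are shown in the sense of the gene, with the match in capitals.
Creld2 (chr15:88819509-88819549, plus strand, match on the opposite strand): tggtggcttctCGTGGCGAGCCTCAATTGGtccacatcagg
Hspa5 (chr2:34772014-34772054, plus strand): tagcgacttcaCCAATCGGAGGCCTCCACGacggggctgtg
Pdia6 (chr12:17266480-17266520, plus strand): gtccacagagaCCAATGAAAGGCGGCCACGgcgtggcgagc
Hsp90b1 (chr10:86705522-86705562, minus strand, match on the opposite strand): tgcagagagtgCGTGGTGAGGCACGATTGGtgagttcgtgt
Dnajc3 (chr14:118937816-118937856, plus strand): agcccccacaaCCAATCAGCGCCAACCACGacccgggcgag
Each match lay between 46 bases (Hspa5) and 107 bases (Creld2) before the RefSeq start. That start can differ from the annotated one given with a gene's position, and for Hspa5 the match lies inside the annotated gene. Hsp90b1 held a second match 193 bases before it. Sdf2l1 and Pdia4 had a window without these letters.

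ATF4 and CHOP targets were mostly too low to compare. Of 18 genes on its list, 5 reached 50 CPM and 4 were higher, of which Ddit3 and Atf4 reached 50 CPM in the mutant library alone. They were Ddit3, which encodes the transcription factor CHOP, at 13.0 and 58.9 CPM (log2 ratio 2.18), Ddit4, an inhibitor of mTORC1, at 59.6 and 109 CPM (0.87), Atf4 itself at 43.6 and 71.6 CPM (0.72), and Mthfd2 at 78.9 and 119 CPM (0.59). Of the 3 list genes that reached 50 CPM in WT, 2 were higher and none lower, beside 2.05% higher of all 3515 such genes. Below 50 CPM, Trib3 was counted 1 time in WT and at 8.91 CPM in mutant members, and Atf5 was at 2.43 and 31.7 CPM. Ppp1r15a, the regulatory subunit that dephosphorylates eIF2α, was just under 50 CPM in WT and at 41.3 CPM in mutant members.

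The mutant members differed widely among themselves in the ER list. With each cell thinned to 1500 UMIs, WT members held a median of 4 UMIs of the list, with the 10th percentile at 2 and the 90th at 8. Mutant members held a median of 6, with the 10th percentile at 2 as well but the 90th at 22. More than 13 UMIs, the 99th percentile of WT members, were found in 915 of 3873 mutant members (23.6%, 22.3 to 24.995) and in 13 of 1403 WT members (0.927%). The counts ran on without a gap at this limit, where 89 mutant cells held 13 and 74 held 14. The limit therefore cuts a range of values, and whether the high cells are a separate kind was not tested. In resting cDC1 the whole distribution lay higher, with medians of 6 in WT and 30 in mutant cells and a 10th percentile of 6 in the latter. Which mice the high cells came from cannot be told apart.

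**Figure D4:**
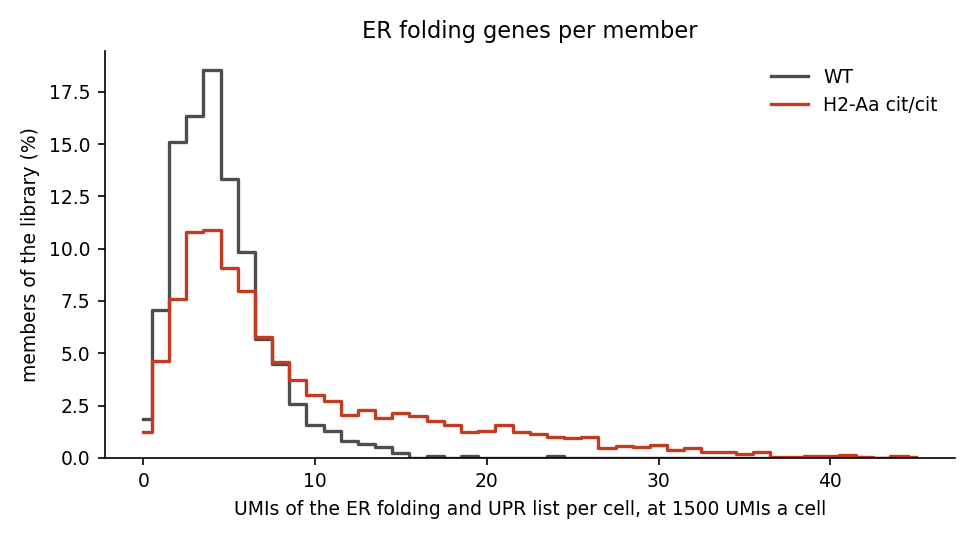
Share of members (%) by the number of UMIs of the ER folding list in a cell thinned to 1500 UMIs, for 1403 WT members and 3873 members of H2-Aa cit/cit, drawn up to 45 UMIs. Both curves peak at 4 UMIs, and the H2-Aa cit/cit curve has a long upper range, with 13.0% of cells at 20 or more.

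Cox6a2 followed the same range of cells. The gene lies on the minus strand of chromosome 7 (128205435 to 128206387) and encodes a subunit of cytochrome c oxidase that is otherwise known from muscle and plasmacytoid DC. Only 6 WT members held a UMI of it (0.409%, 0.608 CPM), whereas 688 mutant members did (17.3%, 131 CPM), a log2 ratio of 7.75 (6.71 to 9.07). Its 3666 UMIs were not the product of a few cells, since the 10 highest held 7.36% of them. Within the mutant members it was at 8.26 CPM in the 1361 cells with 0 to 4 UMIs of the ER list, at 16.2 CPM in 1206 cells with 5 to 9, at 222 CPM in 802 cells with 10 to 19, and at 553 CPM in 504 cells with 20 or more. In other kinds of mutant cells Cox6a2 was at 300.5 CPM in resting cDC1 and 49.3 CPM in Ccr2 and Mgl2 positive cells, against 0.197 and 3.56 CPM in WT. Cells of the same limits with 0 Ffar2 UMIs held 105 CPM in mutant and 2.09 CPM in WT. Ffar2 positive cells with under 10% ribosomal UMIs held 13.6 CPM in mutant and 0.805 CPM in WT.

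Other genes outside the list moved along with it in the mutant members. Of 3711 genes, 78 (2.10%) were 2-fold or more higher and 4 (0.108%) 2-fold or more lower in cells with at least 10 UMIs of the ER list than in cells with fewer than 5. Of the 3507 that reached 50 CPM in the cells with fewer than 5, 31 (0.884%) were higher and 4 lower. The rest of the 78 reached it in the cells rich in the ER list alone, so that their direction was fixed by the minimum. The bands were cut on the same cells, so these values are descriptions. After Cox6a2 the highest were Atf5 (3.86 and 79.4 CPM), Nupr1 (7.08 and 89.0 CPM), Ddit3 (13.5 and 134 CPM) and Nucb2 (16.6 and 129 CPM). Among others named after their values were seen, Spcs2, of the signal peptidase, was at 91.4 and 336 CPM, Rpn1, of the oligosaccharyltransferase, at 24.0 and 98.2 CPM, and Sec24d, of the COPII coat, at 7.94 and 58.8 CPM. Cox6a2, Atf5, Nupr1, Ddit3, Nucb2, Rpn1 and Sec24d were under 50 CPM in the cells with fewer than 5 UMIs. Their direction was thus fixed by the minimum. Of the ATF4 list, 4 of 9 genes at 50 CPM were 2-fold or more higher, but these 4, Atf5, Nupr1, Ddit3 and Atf4, reached the minimum in the cells rich in the ER list alone. Of the 3 that reached it in the cells with fewer than 5 UMIs, none was 2-fold higher, with Mthfd2 at 86.8 and 173 CPM, Slc3a2 at 59.96 and 116 CPM and Ddit4 at 109 CPM in both. The 4 lower genes were Gm34907, Cacna1e, Ccdc192 and Adgre4. Gm34907 (62.5 and 27.5 CPM) and Adgre4 (65.2 and 32.5 CPM) were under 50 CPM in the cells rich in the ER list. Their direction was thus fixed by the minimum too. Genes of cDC2 identity that the rule did not use differed among themselves. Ltb was at 487 CPM in the lowest band and 485 CPM in the highest, whereas Cd7 was at 217 and 159 CPM, Clec4a4 at 88.5 and 65.9 CPM, Esam at 21.6 and 13.3 CPM, and Cd4 at 115 and 76.8 CPM. Dscam was at 1128 and 636 CPM, and the 7 cDC2 lineage genes summed to 1471 and 1107 CPM. Ffar2, which the rule used, was at 406 and 379 CPM. H2-Ab1 was at 6526 CPM in the lowest band and 9169 CPM in the highest. The median ribosomal share was 18.8% in the lowest band and 21.7% in the highest, and the median depth 6528 and 7150 UMIs.

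**Figure D5:**
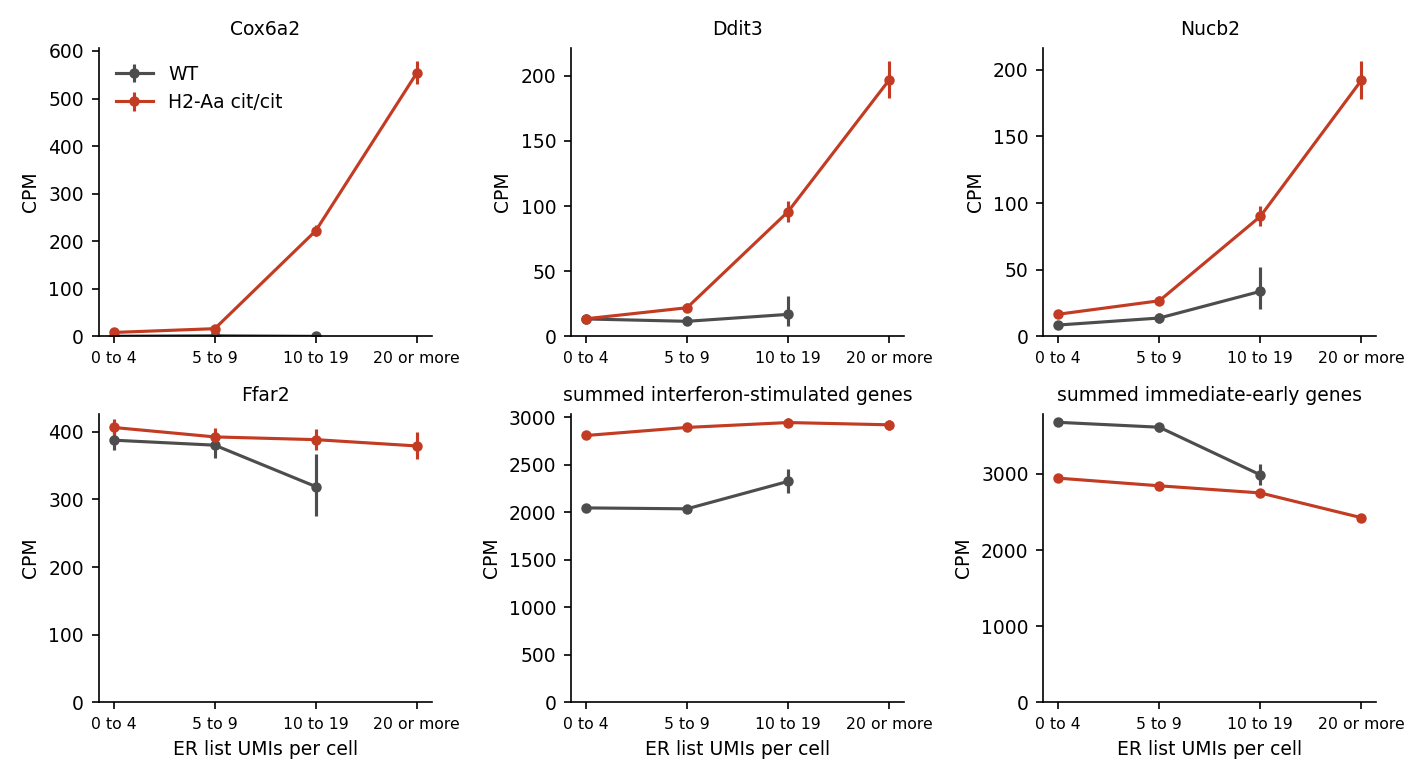
Summed level (CPM) of 4 genes and 2 gene lists in members grouped by their UMIs of the ER list at 1500 UMIs a cell, with exact 95% Poisson intervals; the highest band is drawn for H2-Aa cit/cit alone, since it held 1 WT cell. Cox6a2, Ddit3 and Nucb2 climb with the bands in H2-Aa cit/cit members. Ffar2, which chose the cells, is drawn for its level alone, and the interferon-stimulated and immediate-early lists stay apart between genotypes in the lowest band.

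Interferon-stimulated genes were higher in part. Of 32 on the list, 19 reached 50 CPM, 8 were higher, none was lower, and the median log2 ratio was 0.38. Of the 13 that reached 50 CPM in WT, 4 were higher and none lower, with a median of 0.32. Of all 3515 such genes, 2.05% were higher. The other 6 passed the minimum through the mutant library, so that their direction was fixed by it. Oasl2 and Irf7, given next, are among these 6. Ly6e, a surface protein that restricts viral entry and the most abundant of the list, was at 304 and 514 CPM (0.76), Oasl2 at 44.4 and 85.5 CPM (0.95), Rtp4 at 57.1 and 92.9 CPM (0.70) and Irf7, the transcription factor that amplifies type I interferon, at 35.2 and 57.1 CPM (0.70). The element GAAA, any 2 bases, then GAAA was searched on either strand. It was found in 13 of the 24 list genes with a promoter window and in 3.99% of all genes. Of the compared list genes with a window, 1 of the 4 higher and 7 of the 9 others held it. In the members with 0 to 4 UMIs of the ER list, 3 of the 13 that reached 50 CPM in WT members were higher and none lower, beside 0.797% higher and 1.22% lower of all 3515 such genes. The summed level of the whole list there was 2045 CPM in WT and 2807 CPM in mutant cells. Across the mutant bands from lowest to highest the sum was at 2807, 2892, 2943 and 2919 CPM, while Ly6e was at 474, 494, 522 and 648 CPM.

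Immediate-early genes were lower in part. Of 24 on the list, 18 reached 50 CPM, 6 were lower, none was higher, and the median log2 ratio was −0.37. All 18 reached it in WT, and of the 6, Egr1 alone was under it in the mutant. Of all 3515 genes that reached 50 CPM in WT, 1.51% were lower. Egr1, a zinc finger factor induced within minutes of a stimulus, was at 97.1 and 31.5 CPM (−1.63), Zfp36, which degrades cytokine transcripts, at 220 and 131 CPM (−0.74), Klf2 at 148 and 89.6 CPM (−0.73) and Jun at 355 and 219 CPM (−0.69). Fosb, at 78.3 and 92.1 CPM (0.23), went the other way but stayed under the fold. In the lowest band of the ER list, 5 of 18 were lower, beside 1.22% of all genes that reached 50 CPM in WT members. Immediate-early genes also answer to tissue handling, and its part in the difference was not tested.

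Genes of the NOTCH2 program and of lymphotoxin signaling were held at similar levels, most of them slightly under WT. Of 11 NOTCH2 and ESAM-high genes, 7 reached 50 CPM and 1, Relb (490 and 328 CPM, log2 ratio −0.58), was lower. For this and the next 2 lists, the shares over all 3681 genes were 3.12% higher and 1.44% lower. In members of 10 to 15%, 15 to 20%, 20 to 25% and at least 25% ribosomal UMIs the ratio of Relb was −0.48, −0.39, −0.61 and −0.20, so that it was past the fold in 1 of these 4 bands. Dtx1 was at 150 and 112 CPM (−0.42), Runx3 at 296 and 243 CPM (−0.29), Clec4a4 at 103 and 86.0 CPM (−0.26), and Cd4 at 112 and 108 CPM (−0.05). Of 12 lymphotoxin and noncanonical NF-kB genes, 6 reached 50 CPM, and Relb, with the same limit, was again the one past the fold, with Birc3 at 387 and 332 CPM (−0.22) and Map3k14, the NIK kinase, at 162 and 143 CPM (−0.17). Of 12 CLEC12A-high genes, 3 reached 50 CPM: Cd209a was higher (99.9 and 149 CPM, 0.57), Lyz2 lower (129 and 64.4 CPM, −1.001) and Csf1r at 58.1 and 62.1 CPM (0.10).

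Several other groups held few or no genes past the fold. For comparison, 3.12% of all 3681 genes were higher and 1.44% lower. Of 20 metabolite receptors and G protein genes, 12 reached 50 CPM and none was past the fold, with Rgs2, a regulator of G protein signaling, at 795 and 677 CPM and the related fatty acid receptor gene Ffar1 at only 9.98 and 10.5 CPM. Of 22 lineage transcription factors, 13 reached 50 CPM and Relb alone was past it over all members, with Zeb2 at 517 and 594 CPM and Irf4 at 60.8 and 50.5 CPM. Of 20 MHC-I genes, 19 were compared and 2, H2-Q6 (52.0 and 91.9 CPM) and H2-Q7 (147 and 221 CPM), were higher, though their near-identical sequences make the split between them uncertain, whereas H2-K1 was at 1105 and 1402 CPM and B2m at 1781 and 1576 CPM. Of the C-type lectins, 2 of 7 at 50 CPM were higher, namely Clec4a3 (61.3 and 92.4 CPM) and Cd209a. None was past the fold among 9 costimulatory and checkpoint ligands, 4 cytokines and chemokines (Ccl5 533 and 560 CPM), 3 toll-like receptor genes and the 1 positioning receptor, Gpr183, that reached 50 CPM.

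Of the genes lowest after H2-Aa, Ryr3, the ryanodine receptor that releases calcium from the ER, stood at 83.9 CPM in WT members against 22.97 CPM in mutant members (log2 ratio −1.87, −2.02 to −1.72), with a UMI in 20.7% and 7.10% of members. H2-M2, a nonclassical MHC-I gene, was at 118 and 43.9 CPM (−1.43), and 10 cells held 24.1% of its WT UMIs. Dlg2, a synaptic scaffold gene, was at 119 and 55.4 CPM (−1.10), and Frmd5 at 778 and 393 CPM (−0.99). Gm47283 was at 230 and 76.6 CPM (−1.59), but its ID lies on chromosome Y in the annotation and the mice were female, so that its reads may belong to a near-identical copy.

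The differences were also read within bands of cells, since the libraries differed in depth and ribosomal share. The counts here are of the 3515 genes that reached 50 CPM in WT members, so that no gene entered through the mutant library. Genes under 50 CPM in mutant members, such as Egr1, entered through WT alone, so that their direction over all members was fixed as lower. In members with fewer than 4000 UMIs, 30.1% of all these genes were higher, and in members of at least 25% ribosomal UMIs 19.7%, so the counts in these bands say little of a list. In the other 10 bands of ribosomal share, depth or Ffar2 UMIs, 1.68 to 3.64% of all genes were higher and 1.05 to 3.61% lower. There 10 to 17 of the 18 ER genes were higher and none lower, 2 to 7 of 13 interferon-stimulated genes were higher and none lower, and 5 to 8 of 18 immediate-early genes were lower and none higher.

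The ER list was also higher in the other kinds of mutant cells. Of its genes that reached 50 CPM in the WT cells of the kind, 16 of 21 were higher in the cells with 0 Ffar2 UMIs, 15 of 22 in Ccr2 and Mgl2 positive cells, 21 of 21 in resting cDC1 and 11 of 16 in the cells with under 10% ribosomal UMIs, and none of these was lower. Of all genes that reached it there, 2.99%, 1.83%, 7.40% and 2.27% were higher in these kinds. The median log2 ratios of the ER genes were 0.93, 0.63, 1.70 and 0.69. Another 7, 5, 10 and 8 ER genes reached 50 CPM in the mutant cells alone. Thinned to 1500 UMIs, a Hspa5 UMI was found in 28.0% and 53.1% of WT and mutant members and in 39.1% and 88.6% of resting cDC1. No test of the difference between kinds could be made with 1 library each.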

How the data were processed

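The deposited counts are raw UMIs of each of 32285 genes in called cells. The authors made them with Cell Ranger (version 5.0.1), and the submitters' notes name GRCm38. WT cells held 51020804 UMIs and H2-Aa cit/cit cells 72652201. The submitters' processing notes also name Seurat, whose output was not used here. Whether intronic reads were counted is not given in the sources used here. The members and gene lists were chosen with earlier results of these data known.

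Counts were summed over the cells of a kind and scaled to a total of 1000000 (CPM). A gene was compared when it reached 50 CPM in either library and called at a log2 ratio of 0.5 in size, or 2-fold in both libraries against other kinds of cells. Against other kinds the minimum could be met in either kind, so that genes met by a single kind had their direction fixed. Intervals are exact Clopper-Pearson for shares, exact Poisson for levels, exact conditional binomial for ratios and Newcombe for differences of shares. They cover counting error only. No gene-wise test was run, since each genotype is 1 library of 3 pooled mice. The labels give 4 months of age, whereas the Methods give a younger range.

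Genes named in the text are the 10 highest and 10 lowest ratios, up to 4 of largest size and the most abundant in each list, the 10 highest and 5 lowest against each other kind, and the genes of the rule. Others among the lists, Atf5, Nupr1, Derl1, Edem2 and Ppib among them, were named after their values were seen. Python 3.11.15, numpy 2.4.6, scipy 1.17.1, pandas 2.3.3 and matplotlib 3.10.9 were used, and ratios were tested on simulated data. Gene positions came from GENCODE vM21, which held 32158 of the gene IDs. For detection shares each cell was thinned to 1500 UMIs. Alternatives were another scaling, equal weight of cells, other Ffar2, ribosomal, mitochondrial, depth and marker limits, a minimum of 10 CPM and a log2 ratio of 1. Bands of the ER list, of depth and of ribosomal share, and a minimum of 50 CPM in WT, were added after seeing the data.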

Additional observations from a re-analysis of the deposited data

How the results depend on the processing

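No paired analysis was possible because each genotype is a single library. The larger share of members in mutant cells held under every alternative run, but its size did not. With at least 2 Ffar2 UMIs the shares were 12.9% for WT against 23.9% (difference 10.98 points), with cells thinned to 1500 UMIs 9.99% and 19.6% (9.57), with no ribosomal minimum 26.7% and 41.0% (14.3), and without members holding markers of other cell types 8.25% and 15.4% (7.13). That last alternative left 645 and 1773 members, since Adgre1 is common in them. Without members over 2 times the median UMIs the mutant share was 33.4%. A minimum of 10 CPM gave 276 higher (3.28%) and 203 lower (2.41%) of 8422 genes, and a log2 ratio of 1 gave 22 and 8. With a minimum of 50 CPM in WT, 72 genes were higher and 53 lower, among them 4 of 13 interferon-stimulated and 2 of 3 ATF4 genes that were higher. Lower genes numbered 101 with no ribosomal minimum, 93 without markers of other types and 82 in members of 4000 to 8000 UMIs. The H2-Aa log2 ratio was −6.36 with no ribosomal minimum, −6.39 in members of 15 to 20% ribosomal UMIs and −6.40 in members of 4000 to 8000 UMIs. Of list counts, 20 of 384 moved by over 1.5 times, none of them an ER folding count, of which 16 to 27 were higher. The lists were not run at a log2 ratio of 1, which 12 of the 27 ER folding genes passed. At a minimum of 10 CPM in either library, 15 of 30 interferon-stimulated, 7 of 12 ATF4, 1 of 21 immediate-early and 1 of 9 toll-like receptor genes were higher. Lower there were 3 of 4 positioning receptors, 2 of 19 lineage factors, 2 of 5 CLEC12A-high and 1 of 10 cytokine genes. Beside them, 3.28% of all 8422 genes were higher and 2.41% lower. Genes that reached 10 CPM in a single library, such as Atf5 in the mutant, had their direction fixed by this minimum. Their number was not counted, so these counts say little of a list. In members of 15 to 20% ribosomal UMIs, Relb left the NOTCH2, lymphotoxin and lineage lists with 0 lower, no CLEC12A-high gene was higher (0) and 1 C-type lectin was. In members of 4000 to 8000 UMIs, 1 MHC-I gene was higher, 1 ATF4 gene lower and 1 positioning receptor lower, as was 1 positioning receptor with at least 2 Ffar2 UMIs. Without markers of other types 2 lineage factors were lower. The causes were not tested. The ribosomal and depth bands, the minimum in WT, and leaving out members with T, B, NK, neutrophil or erythroid UMIs, were chosen after seeing the data. Depth limits what can be read below 50 CPM and in Ffar2 detection per cell.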
